A study of Mus musculus with 26 samples.

Results

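The 39 genes described here drive or mark passage through the cell cycle, and they were followed in cultured cells given a Hedgehog agonist, in mouse RPE/choroid tissue with an endothelial deletion of a Hedgehog ligand, and in single cells of that tissue. They were taken as a list of gene names, drawn up with earlier results of these data known, and no threshold on a measured value chose them. They comprise 11 genes of G1/S and DNA replication, 10 of the cyclin-CDK engine and the ubiquitin ligase APC/C, 13 of the kinetochore, spindle and midzone, and 5 of chromosome structure. All 39 were among the 17623 genes of each bulk table, and 38 were among the 16426 genes of the single-cell tables, where Bub1 was not found.

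Cells commit to division in late G1, when E2F factors released from the pocket proteins switch on the genes that copy DNA, among them the MCM helicase and the enzymes that make deoxynucleotides. Later, in G2 and mitosis, the MuvB complex with B-MYB and FOXM1 switches on cyclin B, the mitotic kinases and the kinetochore genes, and APC/C then degrades many of the proteins. The RPE (the pigmented epithelium under the photoreceptors) and the vessels, stroma and pigment cells of the choroid are largely quiescent in the adult eye. Hedgehog ligands act through the receptor PTCH1 and the membrane protein Smoothened on GLI transcription factors, and their effect on proliferation differs between tissues.

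The cultured cells were choroidal GLI1+ cells, stromal cells sorted by GFP from RPE/choroid of Gli1GFP/+ mice, labelled as SWR/J background and, per the study's methods, outcrossed to BALB/c to remove a retinal degeneration allele, in which GFP replaces 1 Gli1 allele. The sorted cells of several mice were pooled, expanded, frozen and thawed, kept overnight in low serum and then given DMSO or 100 nM SAG, a small-molecule agonist of Smoothened, for 24 h, with 3 samples of each. The tissue came from C57BL/6J mice of 6 months, 12 weeks after tamoxifen. The Ihh iΔEC/iΔEC mice carried floxed Ihh and the Cdh5-PAC-CreERT2 transgene, which deletes in endothelial cells (ECs) of every organ, whereas the Ihh+/+ littermates carried the same transgene and received the same tamoxifen, with 3 mice of each genotype and both sexes used. The single cells came from 1 library each of B6129PF1/J and C57BL/6J mice of 3 months, each pooled from a male and a female eye and sorted as nucleated live cells. Their 13 clusters were the authors' own: RPE (cluster 1), ECs (2 to 4), stromal cells (5 to 8), smooth muscle cells (9), melanocytes (10), hematopoietic cells (11) and Schwann cells (12 and 13).

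The bulk values were the authors' group means in FPKM (fragment counts scaled to transcript length and library depth), so that neither the spread between the 3 samples of a group nor the depth of a library was known and no test could be made. A gene was counted as higher or lower when the means differed by at least 1.5-fold and the higher mean reached 1 FPKM. In the single cells there was 1 library per strain and again no test, and levels are given as UMIs (unique molecular identifiers, each standing for 1 captured RNA molecule) per 10,000 UMIs with exact Poisson 95% intervals, which cover counting error only. The libraries held 3637 and 3928 cells, with medians of 3881 and 3174 UMIs per cell, and 22 cell barcodes occurred in both. The treatment and the deletion were visible in the Hedgehog targets: Gli1 had 0.0280 FPKM with DMSO and 3.65 with SAG, and in tissue 9.40 in Ihh+/+ and 3.15 in Ihh iΔEC/iΔEC, where Ihh itself had 1.53 and 0.454. The cultures expressed the stromal markers Pdgfra (39.2 FPKM with DMSO) and Pdgfrb (36.0), and the pan-leukocyte marker Ptprc was at 0.00333 FPKM or less. Although the donors were described as female, the Y-linked Ddx3y and Eif2s3y had 4.33 and 5.96 FPKM with DMSO beside 11.4 for Xist, genes chosen after their values were seen.

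The start-site regions of 6 members are shown because they contrast genes that were lower with SAG (Ccnb2, Cdc20 and Mki67) with replication genes that were not (Mcm5 and Mcm6), and with Cdk1, which was most abundant in RPE cells. They are RefSeq promoter sequences of build GRCm38.p6, written 5′ to 3′ along the gene, limited to bases before the annotated exons. Capitals mark the motifs searched on both strands: TTTGAA (the cell cycle homology region, CHR, bound by MuvB complexes), CCAAT (the NF-Y box) and TTTNNCGC (an E2F-like site). ATTGG is CCAAT on the other strand. The regions are Ccnb2 at chr9:70421555-70421704 (minus strand), Cdc20 at chr4:118437353-118437502 (minus), Mki67 at chr7:135716380-135716529 (minus), Cdk1 at chr10:69352939-69353088 (minus), Mcm5 at chr8:75109359-75109508 (plus) and Mcm6 at chr1:128359706-128359855 (minus).
Ccnb2: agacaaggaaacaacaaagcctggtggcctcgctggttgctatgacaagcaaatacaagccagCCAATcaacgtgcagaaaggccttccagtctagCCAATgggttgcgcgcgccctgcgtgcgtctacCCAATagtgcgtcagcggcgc
Cdc20: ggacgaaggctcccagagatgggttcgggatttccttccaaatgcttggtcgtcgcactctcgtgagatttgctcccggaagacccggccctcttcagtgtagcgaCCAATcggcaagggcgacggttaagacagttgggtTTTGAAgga
Mki67: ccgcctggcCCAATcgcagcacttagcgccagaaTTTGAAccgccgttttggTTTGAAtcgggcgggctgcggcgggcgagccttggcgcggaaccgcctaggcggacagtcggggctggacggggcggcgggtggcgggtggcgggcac
Cdk1: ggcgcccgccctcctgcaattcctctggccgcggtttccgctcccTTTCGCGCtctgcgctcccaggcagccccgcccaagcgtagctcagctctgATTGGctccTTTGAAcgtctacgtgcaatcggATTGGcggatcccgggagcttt
Mcm5: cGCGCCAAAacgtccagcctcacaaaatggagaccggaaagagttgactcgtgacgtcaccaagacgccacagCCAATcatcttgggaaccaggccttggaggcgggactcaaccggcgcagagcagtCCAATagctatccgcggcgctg
Mcm6: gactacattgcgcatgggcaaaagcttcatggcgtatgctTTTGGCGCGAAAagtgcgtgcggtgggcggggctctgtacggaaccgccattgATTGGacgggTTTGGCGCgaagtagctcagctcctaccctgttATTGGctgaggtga

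Ccnb2 carried 3 CCAAT boxes and Cdc20 a CHR close to its start. Mcm6 carried 2 CCAAT boxes and 3 E2F-like matches, and 2 of the E2F-like matches overlap on opposite strands in the run marked first. Over the 250 bases before the start, 34 of the 39 members had a RefSeq promoter (Aurkb, Ccna2, Mcm4, Smc4 and Tpx2 had none in the table). CCAAT occurred in 29 of the 34 (85.3%), beside 33.8% of all 32817 promoters, and at least 2 copies in 19, beside 10.1%. It was common in both groups, in 8 of 10 G1/S members and 21 of the 24 others, with at least 2 copies in 5 and 14. Of the 11 members lower with SAG that had a promoter, 10 held CCAAT, 6 the CHR and 0 the E2F-like motif. The CHR occurred in 12 of 34 (35.3%), beside 16.0% of all promoters: in 11 of the 24 members outside the G1/S list and in 1 of its 10. The E2F-like motif occurred in 4 of 34 (11.8%), beside 4.28%, and 3 of these 4 were G1/S genes. The GLI motif GACCACCCA was in none of the 34 windows and in 0.225% of all promoters. These are matches of letters and were not tests of binding.

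To ask how Smoothened activation bears on the cycle of choroidal GLI1+ cells, SAG was compared with DMSO. Of the 28 members outside the G1/S list 13 were lower with SAG past the limit, and none of the 11 of G1/S and replication was. Of the 39, 35 had a ratio below 1, including every one of the 28 outside the G1/S list, while among all 15016 genes with both means above 0 the share below 1 was 37.2%. The filter of 1 FPKM kept 36 members (Bub1, Cenpe and Cenpf stayed under it), and 13 of these were at least 1.5-fold lower and 0 higher, beside 2.44% lower and 1.32% higher among the 10317 genes that passed. Without any filter 15 of 39 members were past the limit downward and 0 upward, beside 7.80% and 6.63% of all genes. Among genes of 1 to 10 FPKM, the range of nearly all members, 13 members were lower, beside a background of 2.69% lower and 1.52% higher. The count depended on the limits: it was 4 on the log2(FPKM + 1) scale, 1 at 2-fold and 1 among genes of at least 5 FPKM. The median log2 ratio of the members was -0.46, against 0.06 for all genes past the filter.

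Of the 10 members of the cyclin-CDK engine, 6 were past the limit, all lower, with a median log2 ratio of -0.67. The B-type cyclins, which activate CDK1 for entry into mitosis, were close to 2-fold lower: Ccnb1 went from 2.53 FPKM with DMSO to 1.28 with SAG (1.98-fold) and Ccnb2 from 3.74 to 1.90 (1.97-fold). Plk1, the polo kinase of mitotic entry and spindle assembly, had the lowest ratio of the list, with 2.68 and 1.31 FPKM (2.05-fold). Cyclin A2 (Ccna2), which serves both S phase and G2, had 3.88 FPKM with DMSO and was 1.61-fold lower with SAG. The APC/C activator Cdc20 had 4.83 and 2.68 FPKM, and the APC/C ubiquitin-conjugating enzyme Ube2c 5.92 and 3.78. Aurka, a centrosome kinase, lay just outside the limit (1.67 and 1.14 FPKM, 1.46-fold), and the catalytic partner itself, Cdk1, had 2.67 and 1.95 (1.37-fold). The CDK-binding subunits had smaller differences: Cks2 had 5.43 and 4.24 FPKM, and Cks1b, the most abundant member of all, 24.7 and 22.8.

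**Figure D1:**
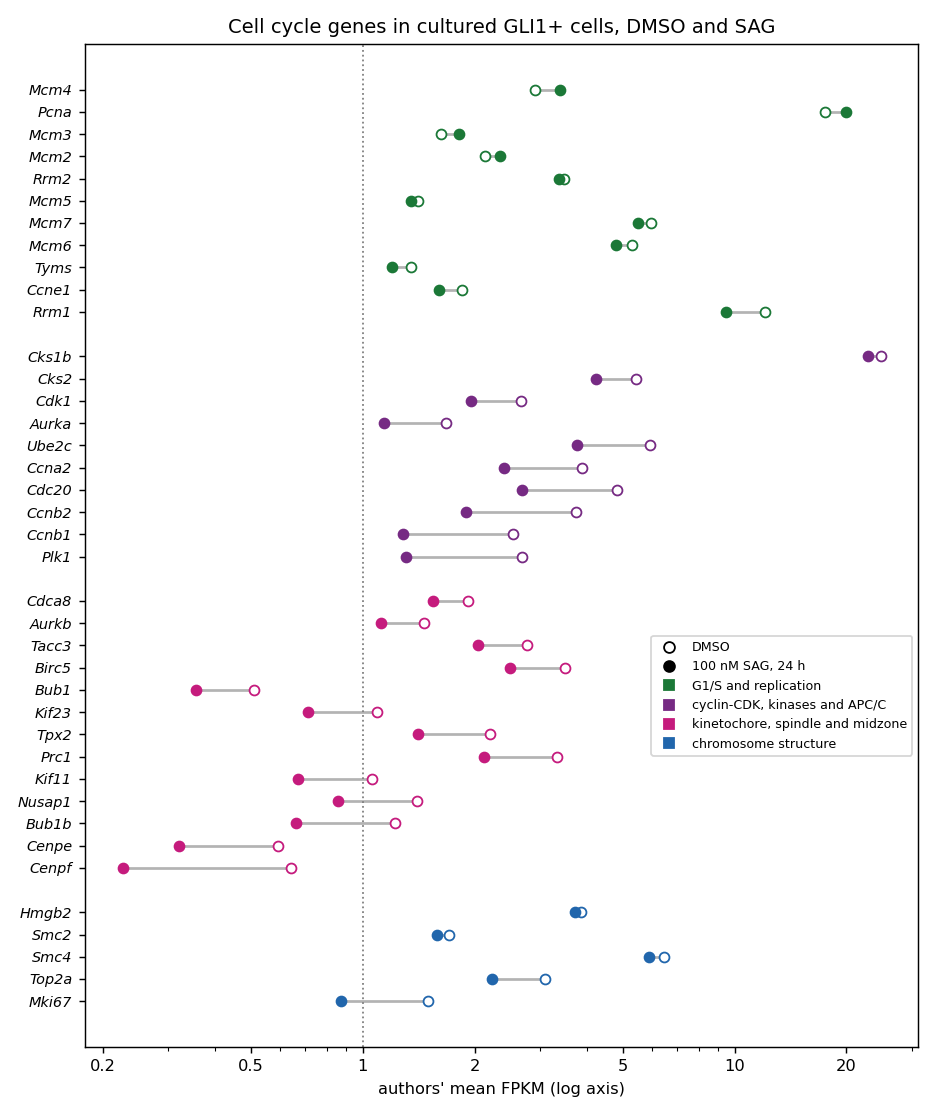
Authors' mean FPKM (log axis) of each of the 39 members in cultured GLI1+ cells with DMSO (open circles) and 100 nM SAG (filled circles), grouped by role and ordered by ratio within a group; means of 3 samples without error bars, since the files give none. The filled circles lie left of the open ones for all 28 members outside the green G1/S group, and the dotted line marks 1 FPKM.

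The kinetochore and spindle genes showed the same order of size. All 13 had ratios below 1 (median log2 ratio -0.65), and 6 of the 10 that passed the filter were lower by at least 1.5-fold. The checkpoint kinase gene Bub1b had 1.22 and 0.663 FPKM, and Nusap1, which bundles spindle microtubules, had 0.856 FPKM with SAG, 1.64-fold below DMSO. Kif11, the motor that pushes the spindle poles apart, had 1.06 and 0.670 FPKM, and Tpx2, which nucleates microtubules and activates Aurora A, 2.20 and 1.41. The midzone proteins of cytokinesis went together, with 3.33 and 2.12 FPKM for Prc1 and 1.09 and 0.714 for Kif23, the member just inside the limit (1.52-fold). Of these 6, the SAG means of Bub1b, Nusap1, Kif11 and Kif23 were under 1 FPKM, so their ratios rest on low values. The chromosomal passenger genes were within the limit, with log2 ratios of -0.38 for Aurkb, -0.49 for Birc5 and -0.32 for Cdca8, the highest of the list (1.92 and 1.54 FPKM). Tacc3, a spindle stabilizer, had 2.77 and 2.04 FPKM. The 3 members under the filter had 0.641 and 0.226 FPKM (Cenpf), 0.590 and 0.320 (Cenpe) and 0.511 and 0.357 (Bub1).

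Among the chromosome genes, only Mki67, whose protein coats mitotic chromosomes and which is the usual marker of cycling cells, was past the limit (0.871 FPKM with SAG, 1.72-fold below DMSO). Top2a, the topoisomerase that untangles sister chromatids, had 3.10 and 2.22 FPKM. The condensin subunits were nearly level, with 1.71 and 1.58 FPKM for Smc2 and 6.45 and 5.89 for Smc4, as was the chromatin protein gene Hmgb2 (3.86 and 3.73).

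None of the 11 G1/S members was past the limit, and their median log2 ratio was -0.06. The MCM helicase genes lay on both sides of 1. Mcm4 had the highest ratio of all members (2.90 and 3.39 FPKM, log2 0.22), followed by the sliding clamp Pcna (17.5 and 19.9, log2 0.19), Mcm3 (1.62 and 1.81) and Mcm2 (2.13 and 2.34). Mcm5, Mcm6 and Mcm7 had log2 ratios of -0.06, -0.14 and -0.12. The large subunit of ribonucleotide reductase, Rrm1, had the lowest ratio of this list (12.1 and 9.51 FPKM, log2 -0.35), whereas the cycle-regulated small subunit Rrm2 was level (3.47 and 3.38). Thymidylate synthase (Tyms) had a log2 ratio of -0.17 and cyclin E1 (Ccne1) one of -0.21. The summed FPKM was 55.6 and 54.8 for the G1/S list and 96.3 and 72.3 for the other 28 members.

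Other genes of the same pathways behaved alike by group. Of 44 further mitosis genes, 40 were in the table, 39 had a ratio below 1, and of the 22 that passed the filter 11 were lower by at least 1.5-fold and 0 higher. The lowest was the separase inhibitor securin, Pttg1 (4.14 and 1.73 FPKM, 2.39-fold), and the other 10 were Dlgap5, Ckap2l, Kif22, Hmmr, Kif2c, Cdca3, Ckap2, Pbk, Nuf2 and Spc24, and the highest was the CDK-activating phosphatase Cdc25b (2.23 in both). Of 32 further replication genes, 19 passed the filter and none was past the limit, with extremes at Tk1 (3.27 and 2.20 FPKM, log2 -0.57) and Gmnn (1.04 and 1.34, log2 0.36). The G1 cyclins and CDKs gave none past the limit among 5 that passed, with Ccnd1, a cyclin D gene, highest (51.9 and 69.7 FPKM, log2 0.43). The 7 CDK inhibitors also gave none, between Cdkn1c (log2 -0.42) and Cdkn1a (93.6 and 109 FPKM, log2 0.22). Of the E2F, pocket protein, MYB and FOXM1 genes 10 passed and none was past the limit, with Foxm1 (1.72 and 1.32 FPKM, log2 -0.38) lowest and E2f5 (log2 0.45) highest.

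In RPE/choroid tissue the mitotic members were near the lower end of detection, and the comparison of Ihh iΔEC/iΔEC with Ihh+/+ turned on 2 genes. In bulk tissue fewer cells of a type and less RNA per cell cannot be told apart. Of the 39 members 24 were under 1 FPKM in both genotypes, among them all but 7 of the 28 outside the G1/S list. Of the 15 that passed, 1 was lower by at least 1.5-fold and 1 higher, beside 2.51% lower and 2.11% higher among 11400 genes. Among genes of 1 to 10 FPKM the background was 2.69% lower and 2.48% higher. Without a filter 7 of 39 were past the limit downward and 1 upward, beside 7.75% and 7.08% of 16507 genes. The median log2 ratio was -0.21, against -0.04 for all genes past the filter, and 28 of the 39 ratios were below 1, where 57.8% of all genes were.

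Mcm6, a subunit of the MCM2-7 replicative helicase, was the member that was lower, from 3.91 FPKM in Ihh+/+ to 1.12 in Ihh iΔEC/iΔEC (3.49-fold, log2 -1.80). Of all genes past the filter 0.123% had a ratio as low. The other subunits of the same hexamer had ratios below 1 but within the 1.5-fold limit: Mcm2 had 2.09 and 1.96 FPKM, Mcm3 2.24 and 1.69, Mcm4 2.46 and 2.27, Mcm5 1.13 and 0.984, and Mcm7 3.04 and 2.53. Mcm6 lies on chr1:128331590-128359664 of GRCm38 on the minus strand, 53.4 Mb from Ihh on the same chromosome. Of the 7 genes within 1 Mb of Mcm6 that passed the filter of 1 FPKM, none was lower past the limit. Cxcr4 was higher (4.92 and 8.69 FPKM, log2 0.82), and the other 6 lay between log2 -0.21 and 0.11. These neighbours were chosen after the value of Mcm6 was seen.

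Hmgb2 was the member that was higher (3.33 and 5.05 FPKM, 1.52-fold), just inside the limit. Cdk1 followed with 1.27 and 1.64 FPKM (1.28-fold) and Pcna with 19.2 and 21.0. The other members that passed were Cks1b (4.76 and 4.07 FPKM), Rrm1 (3.12 and 3.34), Smc4 (1.95 and 1.74), Bub1b (1.52 and 1.57), Tacc3 (1.21 and 1.02) and Cdc20 (1.07 and 1.12). Below the filter, Ube2c had 0.556 and 0.177 FPKM, Ccnb2 0.280 and 0.160, Birc5 0.478 and 0.312, Cenpe 0.342 and 0.165, Cenpf 0.0250 and 0.00867, and Tpx2 0.226 and 0.142. Mki67 had 0.174 and 0.116.

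**Figure D2:**
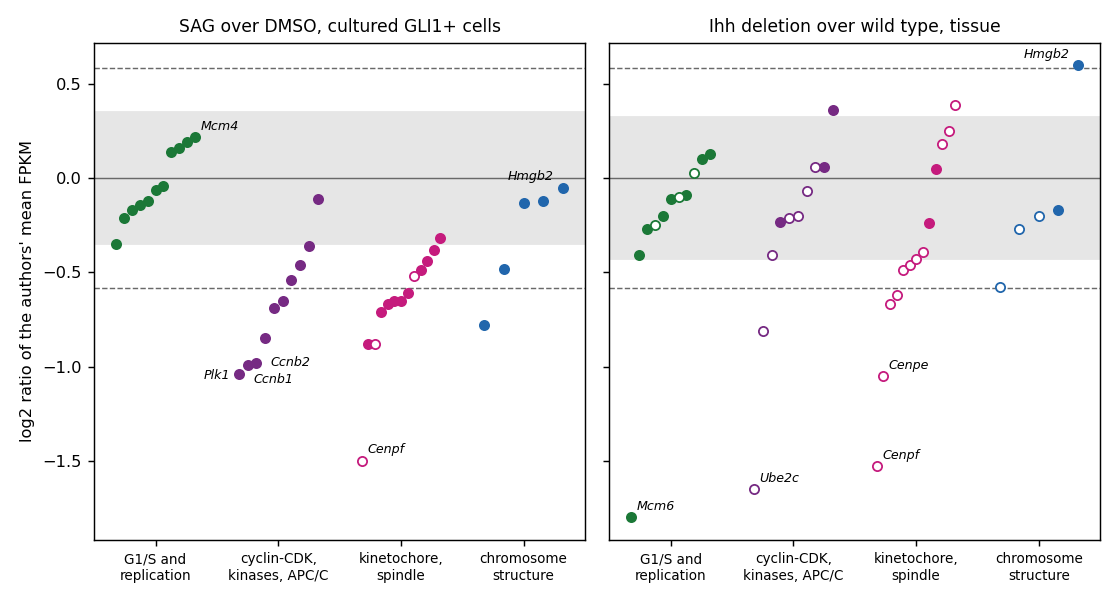
Log2 ratio of the authors' mean FPKM for the 39 members in the 2 bulk comparisons, by role; filled circles passed the filter of 1 FPKM and open circles did not, dashed lines mark 1.5-fold, and the grey band spans the 5th to 95th percentile of all genes past the filter. With SAG the 28 circles outside the G1/S group all lie below 0, whereas in tissue Mcm6 (-1.80) and Hmgb2 (0.60) are the filled circles past a dashed line.

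Among the further pathway genes in tissue, Brca1, a DNA repair gene, was the 1 of 14 replication genes past the limit (4.47 and 2.09 FPKM, lower), and none of the 6 mitosis genes that passed was. Cyclin D2 (Ccnd2) had 8.38 FPKM in Ihh iΔEC/iΔEC, 1.56-fold below Ihh+/+, and the CDK inhibitor gene Cdkn1a, which encodes p21, had 3.90 and 8.38, the reverse direction. The groups also differed in cell markers: the photoreceptor markers Gnat1 (25.5 and 10.8 FPKM), Pde6b (2.46 and 0.959) and arrestin, Sag (8.95 and 3.42), 2 of 3 melanocyte, 2 of 4 stromal, 3 of 5 mast cell and 1 of 6 macrophage markers were past the limit downward in Ihh iΔEC/iΔEC, and none of the 4 endothelial and 4 RPE markers was past it. The Y-linked Ddx3y had 6.50 and 3.39 FPKM and Xist 6.18 and 13.6, so the sex-linked genes also differed between the groups. The part of these differences in the values of Mcm6 and Hmgb2 was not tested.

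Set side by side, 36 of the 39 members had a higher mean in the DMSO cultures than in Ihh+/+ tissue, with a median ratio of 5.07. The tables were normalized separately, so these ratios are descriptive. The median was 1.35 for the G1/S list, 6.61 for the cyclin-CDK list and 7.30 for the kinetochore list. The highest were Cenpf (0.641 FPKM in culture and 0.0250 in tissue) and Bub1 (0.511 and 0.0217). The 3 members higher in tissue were Pcna (17.5 in culture and 19.2 in tissue), Mcm3 (1.62 and 2.24) and Bub1b (1.22 and 1.52).

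The single cells show which cell types held the members in the undisturbed tissue. The 38 members together gave 6073 UMIs in the B6129PF1/J library (3.54 per 10,000) and 6696 in the C57BL/6J library (4.40). Hmgb2 alone gave 1728 and 1885 of these, and among the G1/S genes Pcna gave most (815 and 912), among the cyclin-CDK genes Cks1b (465 and 483), and among the kinetochore genes Kif23 (41 and 51). The genes that define mitotic cells were scarce: Mki67 gave 11 and 7 UMIs, Ccnb1 5 and 12, Plk1 6 and 11, and Aurkb 0 and 9. The 0 for Aurkb allows up to 0.00175 per 10,000 by a limit of 3 UMIs. The same cell type was highest in both libraries for 19 of the 38 members: hematopoietic cells for 14, stromal cells for 3, and RPE and ECs for 1 each. Among the 26 members with at least 20 UMIs in each library it was 14, of which hematopoietic cells made up 9. Of the others, Ccnb2, Aurka and Kif11 rested on 1 hematopoietic UMI each in B6129PF1/J. Of the 9, Cdca8 and Cenpf reached 20 UMIs in C57BL/6J only with the hematopoietic cells, which held 19 of 22 and 15 of 30. Without 5 hematopoietic cells rich in G2/M genes, described with the counts per cell, Birc5 and Cenpf had 0 hematopoietic UMIs in both libraries. Ube2c and Ccnb2 then had 1 each in B6129PF1/J and 0 in C57BL/6J, and Aurka and Kif11 had 0 and 1. Tpx2 had 2 and 0, Cdca8 4 and 4, and Mcm5 5 and 5. The hematopoietic level of Smc2 was then 0.150 per 10,000 in B6129PF1/J, below the 0.177 of ECs. In C57BL/6J it was 0.227, beside 0.216 in ECs.

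**Figure D3:**
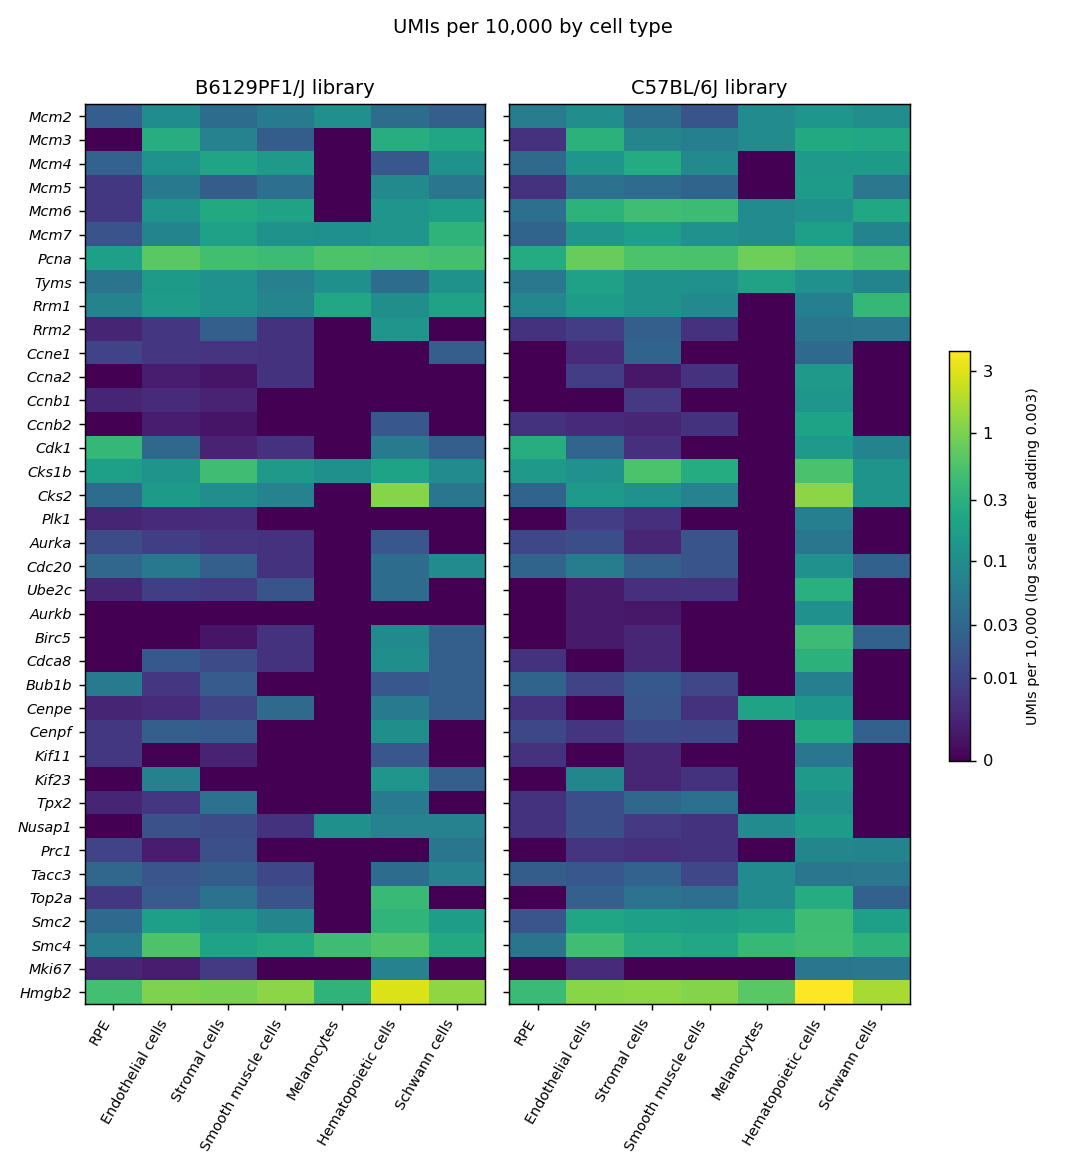
UMIs per 10,000 of the 38 members (rows) in the 7 cell types (columns) of each library, on a log colour scale after adding 0.003. Bright rows are Pcna, Cks1b, Smc4 and Hmgb2 in most types, Cdk1 is brightest in RPE in both libraries, and most kinetochore genes are dark outside the hematopoietic column.

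Cdk1, the mitotic kinase, was found mainly in RPE. Of its 136 UMIs in B6129PF1/J, 114 lay in RPE cells (0.380 per 10,000, 95% interval 0.314 to 0.457), and of its 77 in C57BL/6J 48 did (0.275, 0.202 to 0.364). The highest of the other types was hematopoietic, with 0.0548 (0.0113 to 0.160) and 0.148 (0.0679 to 0.282), or 0.0188 and 0.0349 without 5 cells rich in G2/M genes that are described with the counts per cell, and stromal cells had 0.00299 and 0.00523. A Cdk1 UMI was found in 90 of 407 RPE cells (22.1%, median 5263 UMIs per cell) and 43 of 374 (11.5%, median 3406), beside 2 of 1734 stromal cells (0.115%, median 3613) and 3 of 1760 (0.170%, median 3000). After thinning every cell to 1700 UMIs the RPE levels were 0.332 and 0.362, so the order of the libraries turned and no difference in level between them could be read. Of those 90 and 43 RPE cells, 20 and 3 held another of the G2/M genes and 1 and 0 held 2 others. RPE held 2 and 0 UMIs of Top2a and 0 of Kif23, which allows up to 0.0100 and 0.0172 per 10,000 by the limit of 3 UMIs. Bub1b was also present in RPE, with 17 and 5 UMIs (0.0567 and 0.0286 per 10,000).

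Other members had their own distribution. Kif23 lay in ECs (33 of 41 and 39 of 51 UMIs, 0.0710 and 0.0804 per 10,000) and in hematopoietic cells (0.128 and 0.148, with 7 and 9 UMIs, or 0.113 and 0.0874 without the 5 cells), and stromal cells held 0 and 2 UMIs. Mcm3 was highest in ECs, at 0.276 (0.230 to 0.328) and 0.317 (0.269 to 0.372), with 0 and 1 UMI in RPE. Its intervals overlapped those of the hematopoietic cells (0.274 and 0.247, or 0.169 and 0.192 without the 5 cells) and Schwann cells (0.218 and 0.229) but not those of stromal cells (0.0731 and 0.0785). Pcna in ECs had 0.670 and 0.794, and in RPE 0.177 and 0.257. Mcm4 was highest in stromal cells, with 0.206 (0.173 to 0.243) and 0.260 (0.220 to 0.305). So was Cks1b, with 0.463 (0.413 to 0.517) and 0.549 (0.490 to 0.613), although hematopoietic cells of C57BL/6J reached 0.528 (0.361 to 0.745), and 0.192 without the 3 cells with many G2/M genes. Its relative Cks2 had 1.15 (0.885 to 1.47) in hematopoietic cells of B6129PF1/J and 1.20 (0.944 to 1.51) in those of C57BL/6J, and 0.155 or less in every other type. Hmgb2 was highest in hematopoietic cells too, at 2.91 (2.47 to 3.39) and 4.21 (3.70 to 4.75), and RPE had 0.483 and 0.418. Without the 5 cells that held many G2/M genes, the hematopoietic levels of Hmgb2 were 2.31 (1.92 to 2.75) and 2.66 (2.25 to 3.11). Top2a in hematopoietic cells had 0.402 and 0.264, or 0.300 (0.172 to 0.487) and 0.0874 (0.0284 to 0.204) without the 5 cells, and in stromal cells 0.0433 and 0.0453.

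To see whether any single cell carried the mitotic program, the cells with several G2/M genes were counted. The count used 22 members outside the G1/S list, leaving out Hmgb2, Smc2, Smc4, Cks1b and Tacc3, which cells outside division can also transcribe, and Bub1, which was absent. At least 3 of the 22 were detected in 7 of 3637 cells (0.192%, exact 95% interval 0.0774 to 0.396) and in 6 of 3928 cells (0.153%, 0.0561 to 0.332). Of these, 5 cells stood apart, all in the hematopoietic cluster 11: 2 of B6129PF1/J with 11 genes each, and 3 of C57BL/6J with 22, 18 and 15. No other cell of either library had more than 5. In that order the 5 cells had 10639, 3434, 14877, 9635 and 9636 UMIs, between 0.680 and 3.74 times the median of their cluster, so that 4 of them were deeper than most. In the C57BL/6J library 0 cells had at least 3 of the genes when cells over 2 times the median depth of their cluster were left out, and in B6129PF1/J 4 had. After thinning to 1700 UMIs, 3 cells had at least 3 genes in each library. The paper gives an estimate of doublets and describes no step that removed them. The deposited cells were fewer than those the paper counts, for a reason that was not known.

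**Figure D4:**
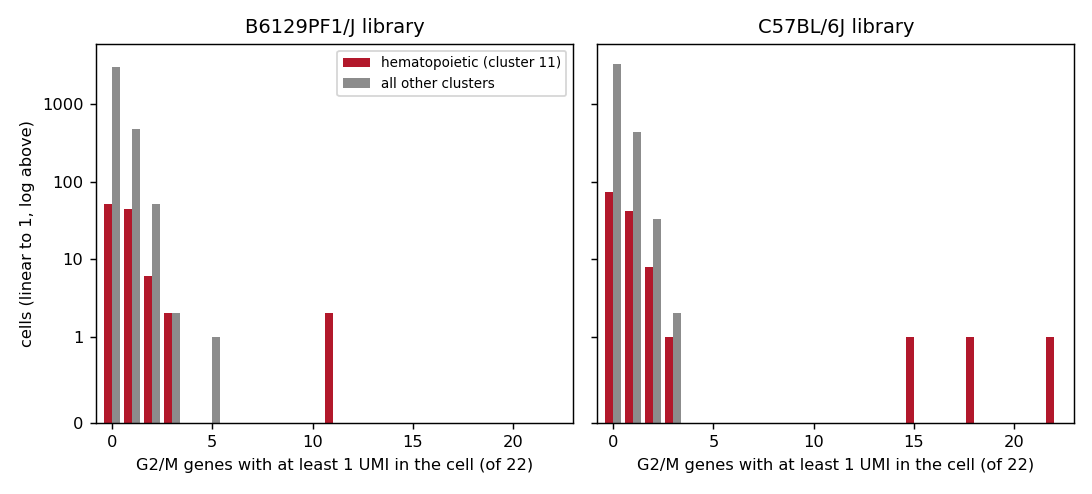
Number of cells (axis linear to 1 and logarithmic above) by how many of the 22 G2/M genes had a UMI, for the hematopoietic cluster 11 (red) and all other clusters (grey) in each library. The red bars at 11 genes (2 cells of B6129PF1/J) and at 15, 18 and 22 genes (3 cells of C57BL/6J) are separated from all other cells, which have 5 or fewer.

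The 5 cells shared some markers and differed in others. Each had between 82 and 193 UMIs of the class II gene H2-Ab1 and carried the leukocyte genes Ptprc, Cd52 and Laptm5, and none had a UMI of the macrophage complement genes C1qa and C1qb. These traits were common in cluster 11 as a whole. In B6129PF1/J and C57BL/6J, H2-Ab1 was found in 75.5% and 63.0% of its cells. Ptprc was found in 72.6% and 66.1%, Cd52 in 89.6% and 90.6%, and Laptm5 in 92.5% and 89.8%. C1qa was found in only 36.8% and 41.7%, and C1qb in 38.7% and 43.3%. Over the whole macrophage marker list, the cells of 9635 and 9636 UMIs had 4 and 2 UMIs, with 1 of Csf1r in each. The other 3 cells had 0. Of the dendritic cell genes, Xcr1 had 1 and 12 UMIs in the cells of 10639 and 14877 UMIs, where Cd209a had 0, whereas Cd209a had 7, 2 and 5 in the other 3, where Xcr1 had 0. Flt3 had 2, 1 and 2 UMIs in the cells of 10639, 3434 and 14877 UMIs and 0 in those of 9635 and 9636. The cell with all 22 genes held 114 UMIs of them and 0 of the G1/S members, whereas the other 4 held 3 to 25 G1/S UMIs beside 17 to 57 G2/M UMIs. In the C57BL/6J library the 3 cells held 26 of 26 Birc5 UMIs of cluster 11, 18 of 18 of Ube2c, 12 of 12 of Ccnb2, 9 of 9 of Ccna2 and 8 of 8 of Ccnb1. They made up 5.63% of the UMIs of the cluster. The 2 cells of B6129PF1/J made up 2.57% of the UMIs of theirs. These 2 held 5 of 5 Birc5 UMIs, 1 of 2 of Ube2c and 0 of 1 of Ccnb2. Ccna2 and Ccnb1 had 0 UMIs in cluster 11 of that library. The 5 cells were set apart by their number of these same genes, so high shares follow from that choice. With the 5 cells, the summed level of the 22 genes in hematopoietic cells was 4.53 per 10,000 (4.01 to 5.10) in C57BL/6J and 2.45 (2.05 to 2.90) in B6129PF1/J. Without the 5 cells it was 1.35 (1.06 to 1.68) and 1.76 (1.42 to 2.16), above the 0.367 (0.337 to 0.400) and 0.398 (0.368 to 0.429) of all cells outside the cluster, and Cks2 gave 56 of the 77 and 60 of the 94 UMIs that were left.

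At least 3 G1/S members were detected in more cells, 75 in B6129PF1/J (2.06%, 1.63 to 2.58) and 123 in C57BL/6J (3.13%, 2.61 to 3.72), but in 1 and 17 cells after thinning to 1700 UMIs. In B6129PF1/J 36 of 863 ECs did (4.17%, 2.94 to 5.73, median 4153 UMIs), beside 2 of 407 RPE cells (0.491%, 0.0596 to 1.76, median 5263). In C57BL/6J 77 of 1024 ECs did (7.52%, 5.98 to 9.31, median 3420), beside 1 of 374 RPE cells (0.267%, median 3406). After thinning, 0 of 863 ECs and 0 of 407 RPE cells did in B6129PF1/J, and in C57BL/6J 6 of 1024 ECs (0.586%, 0.215 to 1.27) beside 8 of 1760 stromal cells (0.455%, 0.196 to 0.894), and these intervals overlapped. Among hematopoietic cells 4 of 106 in B6129PF1/J (3.77%, 1.04 to 9.38) and 6 of 127 in C57BL/6J (4.72%, 1.75 to 10.0) did. Thinned, 1 of 106 (0.943%, 0.0239 to 5.14) and 3 of 127 (2.36%, 0.490 to 6.75) did. These were the highest shares of any type, but the intervals overlapped those of ECs and stromal cells, and the first rests on 1 cell. Before thinning, the 5 cells rich in G2/M genes held 7 and 3 G1/S members in B6129PF1/J and 0, 5 and 9 in C57BL/6J. Their part in the thinned counts was not tested.

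Mcm6 also differed between the single-cell libraries. It gave 271 UMIs in B6129PF1/J and 522 in C57BL/6J, or 0.158 (0.140 to 0.178) and 0.343 (0.314 to 0.373) per 10,000. The ratio of C57BL/6J over B6129PF1/J was 2.17 (1.87 to 2.52). It was the highest of the 17 members with at least 100 UMIs over both libraries, whose median was 1.19, and Smc2 came next with 1.40 (1.17 to 1.67). Of the 17, 1 was higher in C57BL/6J past 1.5-fold and 1, Cdk1, lower (0.638, 0.476 to 0.850), beside 3.17% higher and 3.30% lower among 11517 genes with as many UMIs. Most Cdk1 UMIs lay in RPE, which gave 2999156 of 17168578 UMIs in B6129PF1/J and 1748060 of 15230413 in C57BL/6J. Within RPE, the thinned Cdk1 levels were 0.332 and 0.362. The part of cell composition in the Cdk1 ratio was not tested.

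The difference in Mcm6 recurred across cell types. ECs had 58 and 156 UMIs (0.125 and 0.322 per 10,000, ratio 2.58, 1.89 to 3.54), stromal cells 162 and 265 (0.242 and 0.462, ratio 1.91, 1.57 to 2.34), and smooth muscle cells 35 and 77 (0.197 and 0.430, ratio 2.18, 1.44 to 3.35). It was higher in C57BL/6J in 9 of the 10 clusters with at least 5 UMIs in each library, and the interval lay above 1 in 5 of them. The exception was the hematopoietic cluster 11, with 7 UMIs in each and a ratio of 0.902 (0.270 to 3.02). The Mcm6 relatives Mcm3 and Mcm4 had whole-library ratios of 1.30 (1.08 to 1.58) and 1.21 (1.01 to 1.46). By the same rule Pcna was higher in C57BL/6J in 10 of 13 clusters, Mcm4 in 6 of 9 and Mcm3 in 4 of 7. Their intervals lay above 1 in 2, 1 and 0 clusters. The clusters of a library share its preparation, so they do not repeat the comparison. With 1 library per strain, the strain and the library cannot be told apart.

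**Figure D5:**
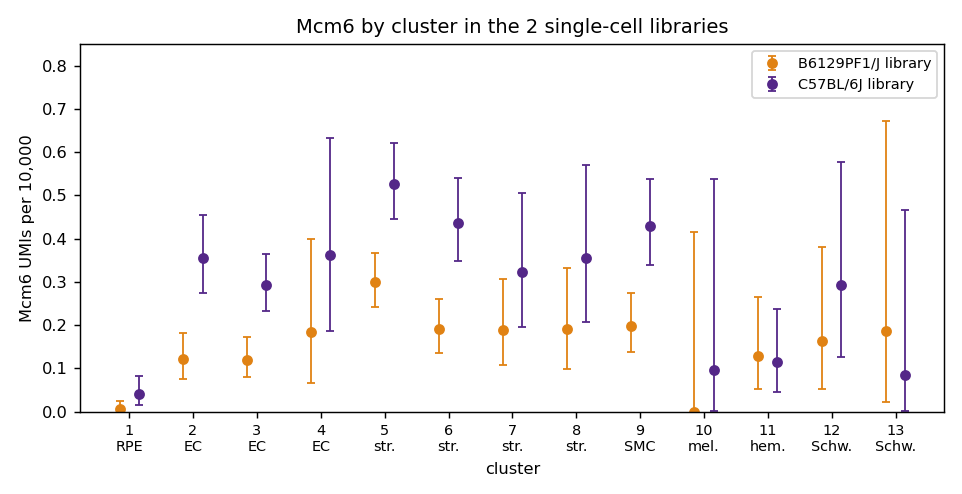
Mcm6 UMIs per 10,000 in each of the 13 clusters of the B6129PF1/J (orange) and C57BL/6J (purple) libraries, with exact Poisson 95% intervals as bars. The purple points lie above the orange ones in clusters 1 to 10 and 12, and the intervals are widest in clusters 10 and 13, which held few cells.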

How the data were processed

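The members, gene lists and comparisons were chosen with earlier results of these data known. For the bulk samples, the authors mapped reads with STAR 2.4.0f1 and SAMtools 0.1.19 to mm10 and computed FPKM with Cufflinks 2.0.2, per the labels and the submitters' processing notes. The deposited FPKM values are means over the 3 samples of a group, and the columns beside them, which hold the authors' own DESeq2 comparisons (fold change, p), were left unused. Ratios of the means were taken without a pseudocount, so genes with a mean of 0 were left out. For the single cells, the authors deposited UMI counts from Cell Ranger and their clusters from Seurat 2.1, after removing cells under 1700 UMIs. Counts were summed per cluster and library, divided by all UMIs there and scaled to 10,000. Intervals were exact Poisson for levels and Clopper-Pearson for shares, and a count of 0 allows up to 3 UMIs. A list of choroid EC genes and the tables of cluster averages with the authors' comparisons were not used. The members named were those past the limit and the extremes of each list. Calculations used Python 3.11.15 with numpy 2.4.6, pandas 2.3.3 and scipy 1.17.1, and were tested on simulated data. Alternatives were other fold limits and FPKM filters, log2(FPKM + 1), thinning and leaving out deep cells. 1 of the genes in the marker lists is not reported here.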

Additional observations from a re-analysis of the deposited data

How the results depend on the processing

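Members lower with SAG numbered 13, and 21 at a looser fold limit, 1 at 2-fold, 1 with a filter of 5 FPKM and 4 on the log2(FPKM + 1) scale; under the other settings the number was 10 to 15. The 15 called ratios of both comparisons kept their direction in all 30 values recomputed with a pseudocount or median centring, of which 10, all on the log2(FPKM + 1) scale, came under the limit. In tissue, members lower numbered 1, and 2 at the looser limit, 7 without a filter and 0 at 5 FPKM, and members higher numbered 1, and 2 at the looser limit, 0 at 2-fold and 0 with log2(FPKM + 1). Cells with at least 3 G2/M genes numbered 7 in B6129PF1/J and 6 in C57BL/6J. With at least 2 genes they were 65 and 47, with at least 5 genes 3 and 3, after thinning 3 and 3, without the deep cells 4 and 0, and with all 28 members outside the G1/S list 166 and 154. For G1/S members, 75 and 123 cells became 457 and 515, 3 and 8, 1 and 17, and 43 and 56 under the first 4 of these settings. Mcm6 in B6129PF1/J was 0.158 per 10,000, 0.179 as a mean over cells and 0.178 thinned. The G2/M sum in hematopoietic cells of C57BL/6J was 4.53, 2.86 as a mean over cells, 2.83 thinned, 1.57 without deep cells and 1.35 without the cells that held at least 11 of the genes, which gave 1.76 in B6129PF1/J. The cause of these shifts was not tested, beyond what each setting leaves out. The settings of 1 to 10 FPKM, of a mean of both groups and of leaving out the cells with at least 11 genes were chosen after seeing the data. No paired analysis was possible because the bulk files hold group means and each strain has 1 library. For the same reason no replicate could be left out.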
